A study of Homo sapiens with 6 samples.

Results

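The 10 genes described here belong to the pathway by which cells sense oxygen through hypoxia-inducible factor 1 (HIF1). They are the HIF1 subunits HIF1A and ARNT, the prolyl hydroxylases EGLN1 and EGLN3, and the target genes VEGFA, ADM, BNIP3, NDRG1, KDM3A and PDK1, which act outside glycolysis. They were chosen by symbol, and all 10 are among the 56305 gene symbols counted. RNA was sequenced from MOLM13, a human acute myeloid leukemia cell line. Both groups carry its FLT3 internal tandem duplication (FLT3-ITD) and its rearrangement of chromosomes 9 and 11 (p22 and q23). Cells were treated for 24 h with DMSO, the vehicle (3 libraries), or with 1 μM ZW27941 (3 libraries). ZW27941 is a PROTAC (proteolysis-targeting chimera), a molecule whose ends bind METTL3, the m6A RNA methyltransferase, and VHL (Von Hippel-Lindau), the substrate receptor of a ubiquitin ligase.

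In well-oxygenated cells EGLN enzymes hydroxylate prolines of HIF1A, and VHL binds the hydroxylated protein and marks it for the proteasome. When oxygen is low, or when VHL cannot bind, the HIF1A protein accumulates, pairs with ARNT and binds the core motif ACGTG or GCGTG near its target genes. The ligand that brings a PROTAC to VHL mimics hydroxyproline and occupies the same pocket as HIF1A. The comparison therefore asks whether transcripts known to rise when HIF is stabilised were higher in ZW27941-treated cells. Only RNA was counted, so the HIF1A protein itself was not measured here.

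Of the 9 genes with enough reads for a test, 2 were higher on ZW27941 (22.2%) and 5 were lower (55.6%), where 16.3% of all 20399 genes tested were higher and 13.8% lower, 30.1% in all. The transcripts of HIF1A and of EGLN1, an inhibitor of the pathway and itself a HIF target, rose by 0.14 and 0.17 on the log2 scale. The targets NDRG1, ADM, BNIP3, KDM3A and VEGFA fell, by 0.37 to 0.11. ARNT and PDK1 did not pass the test, and EGLN3 was close to absent. None of the 6 targets that act outside the oxygen-sensing machinery rose.

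To show where the letters that HIF binds occur near the starts of these genes, the core motif was searched in RefSeq promoter windows of build GRCh38.p14, from 250 bases before to 50 after each annotated start. A match was ACGTG or GCGTG on the gene strand, or the reverse complement CACGT or CACGC. Windows were found for 8 of the 10 genes (not for VEGFA and NDRG1), and 6 of these 8 held a match. Counted by window, 7 of 11 held a match. The motif is common, since 48.4% of all 35116 windows hold it and 59.0% of the 15557 windows of tested genes do. The stretches below are shown for 3 targets that fell and for the 2 genes that rose. Each reads 5′ to 3′ on the gene strand with the matches in capitals. They span chr11:10304942-10305006 (ADM, plus strand), chr10:131981993-131982096 (BNIP3, minus strand), chr2:86441315-86441379 (KDM3A, plus strand), chr1:231422266-231422330 (EGLN1, minus strand) and chr14:61695279-61695343 (HIF1A, plus strand).
ADM: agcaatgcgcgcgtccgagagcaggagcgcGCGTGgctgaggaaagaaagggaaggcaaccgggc
BNIP3: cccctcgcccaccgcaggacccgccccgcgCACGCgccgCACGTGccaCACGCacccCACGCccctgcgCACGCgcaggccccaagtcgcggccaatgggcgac
KDM3A: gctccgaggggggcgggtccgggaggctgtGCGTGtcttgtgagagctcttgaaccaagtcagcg
EGLN1: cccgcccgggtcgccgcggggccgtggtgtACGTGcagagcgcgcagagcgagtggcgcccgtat
HIF1A: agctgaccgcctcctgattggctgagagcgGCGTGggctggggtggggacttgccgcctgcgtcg

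BNIP3 stood out with 6 matches between positions −143 and −104 from its start, of which a pair overlaps in the palindrome CACGTG. That palindrome is also the E-box that MYC and MAX bind, and 7.26% of all windows hold it. ADM had 1 match, and so did each of the 2 windows of KDM3A, which overlap and share the same site. EGLN1 had 1, and HIF1A had 1 in the window of the first of its 2 annotated starts. ARNT and EGLN3 had none, and PDK1 had 2 matches, both at the second of its annotated starts. Genes that rose and genes that fell thus both held the motif, and a match is a description of letters, not of binding.

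**Figure D1:**
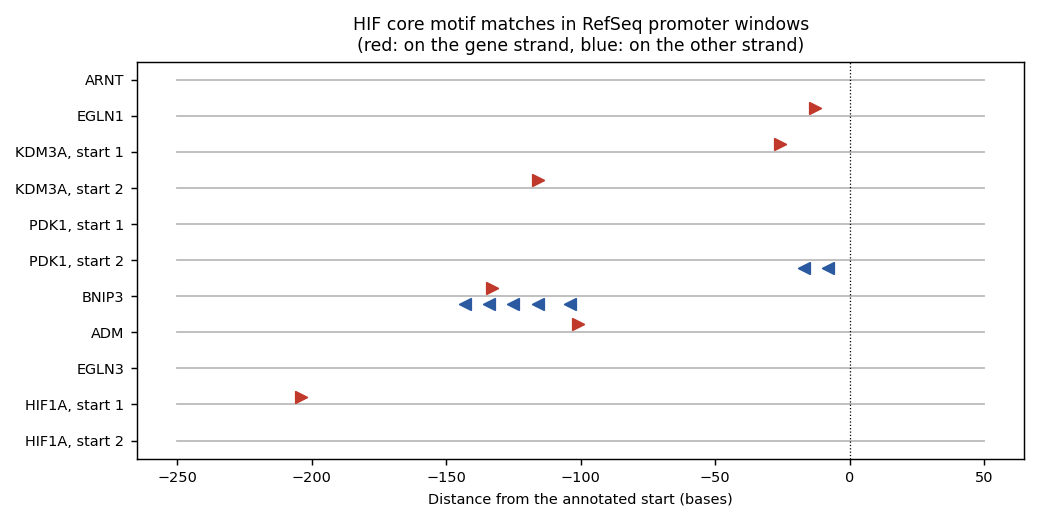
Matches to the HIF core motif in each RefSeq promoter window, by distance from the annotated start in bases (x axis), with 1 line per window. Red triangles are matches on the gene strand and blue triangles on the other strand. BNIP3 carries 6 matches, while ARNT and EGLN3 carry none.

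The libraries held 143454176 to 178744976 counts on genes. Levels are given as CPM, the counts scaled to a common library total with edgeR's TMM factors. A gene is called changed where its Benjamini-Hochberg adjusted p in the quasi-likelihood test of edgeR is under 0.05. Replicates differed by more than counting noise, and ZW27941 replicate 3 stood furthest from its group. The labels do not say whether replicates came from separate cultures, so p-values measure the spread between these libraries. In bulk RNA, fewer cells that express a gene and less RNA per cell cannot be told apart. The myeloid markers fixed for the check (CD33, FLT3, HOXA9, MEIS1, SPI1, LYZ and CSF1R) were all at 45.0 CPM or more in every library. Of these 7 markers, SPI1, LYZ and CSF1R were called higher on ZW27941 (42.9%) and 0 lower. Among all genes tested 16.3% were higher and 13.8% lower. CD33, FLT3, HOXA9 and MEIS1 were not called. The summed level of the 7 was 1876 to 1940 CPM in DMSO and 2097 to 2161 CPM on ZW27941. LYZ was the largest part of that sum, with means of 963 CPM in DMSO and 1160 CPM on ZW27941. The part of these marker differences in the results was not tested. Of 7 markers of other cell types, 1 (COL1A1) reached 1 CPM in any library, and their summed level was 1.45 to 1.77 CPM in DMSO and 1.15 to 1.67 CPM on ZW27941. The METTL3 transcript lay between 119 and 128 CPM in all 6 libraries, which does not check the labels, since the degrader acts on the protein.

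HIF1A, the subunit whose stability sets the activity of the pathway, lies on chromosome 14 from 61695513 to 61748259 (GRCh38, plus strand). Its level was 44.2, 43.0 and 44.8 CPM in the DMSO libraries and 48.8, 49.0 and 47.8 CPM in the ZW27941 libraries. Every ZW27941 library lay above every DMSO library. The log2 fold change was 0.14 (standard error, SE, 0.028, adjusted p = 5.33e-04), and it stayed called in all 14 other fits tried, between 0.12 and 0.16, none of which set a minimum size of change. The annotated genes AL137129.1 and HIF1A-AS1 share 5.14% of the exonic bases of HIF1A in GENCODE v29. Counts of AL137129.1 were not examined, and the strand setting of the counting is not given in the sources used here. The antisense RNA HIF1A-AS1 had 3 to 10 reads per library. HIF1A-AS2, a further antisense RNA, is not listed under that symbol among the genes sharing those bases. Its mean levels were 4.35 ± 0.153 CPM in DMSO against 4.34 ± 0.451 CPM with ZW27941 (SD, n = 3), and it was not called (adjusted p = 0.976).

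ARNT, the constitutive partner of HIF1A, lies on chromosome 1 from 150809705 to 150876768 (minus strand). It was at 130, 134 and 133 CPM in DMSO and at 130, 129 and 122 CPM on ZW27941. The groups did not overlap, by a narrow margin, but the difference was not called (log2 fold change −0.064, 95% interval −0.12 to −0.0086, adjusted p = 0.0760). With upper quartile normalization it was called (−0.088, adjusted p = 0.0160). The difference between HIF1A and ARNT in response was not tested.

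EGLN1 encodes the main prolyl hydroxylase of HIF1A and is on chromosome 1 from 231363751 to 231425044 (minus strand). Its level was 149, 150 and 156 CPM in DMSO and 171, 171 and 169 CPM on ZW27941. All ZW27941 libraries were above all DMSO libraries, and the rise was the largest among the 9 genes tested (log2 fold change 0.17, SE 0.025, adjusted p = 2.56e-05). EGLN3, a hydroxylase known for strong induction in hypoxia, is on chromosome 14 from 33924231 to 34462774 (minus strand). It had 6, 9 and 6 reads in DMSO and 9, 7 and 8 reads on ZW27941. That is under 0.06 CPM in every library, so the gene failed the expression filter and was not tested. A small change could not be detected at this depth.

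**Figure D2:**
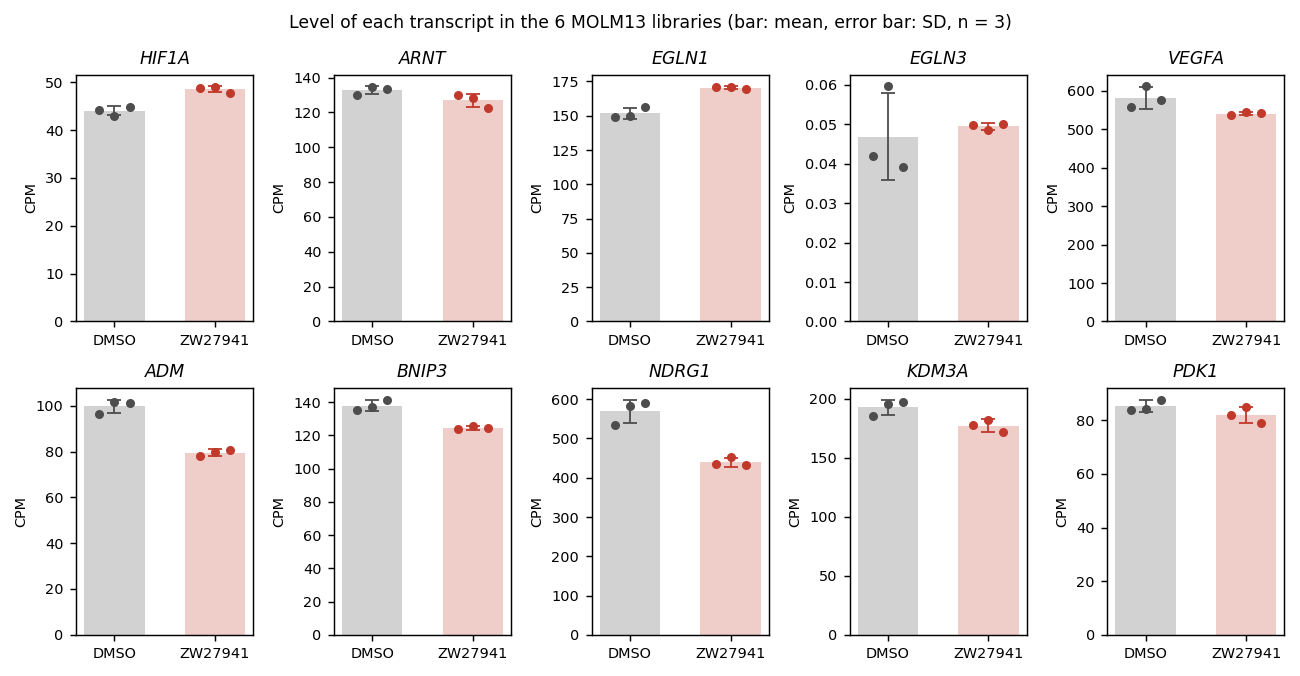
Level in CPM (y axis, from 0, a scale of its own in each panel) of the 10 genes in DMSO and ZW27941 libraries. Points are libraries, bars are means and error bars are SD (n = 3). Relative to their level, ADM and NDRG1 show the widest gap between the groups, with ZW27941 at 79.5 and 440 CPM on average. HIF1A and EGLN1 lie higher on ZW27941.

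NDRG1, a hypoxia- and stress-induced gene of the N-myc downstream-regulated family, showed the largest fall. It is on chromosome 8 from 133237171 to 133302022 (minus strand). Its level was 534, 583 and 589 CPM in DMSO and 434, 453 and 432 CPM on ZW27941. The groups were well apart, with the highest ZW27941 library below the lowest DMSO library. The log2 fold change was −0.37 (SE 0.032, adjusted p = 1.67e-08), and it ran from −0.42 to −0.35 over the 14 alternatives.

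ADM encodes adrenomedullin, a secreted vasodilator peptide, and lies on chromosome 11 from 10304680 to 10307397 (plus strand). It was at 96.3, 102 and 101 CPM in DMSO and at 77.8, 79.9 and 80.8 CPM on ZW27941. Again no library of one group reached the other. The log2 fold change was −0.33 (SE 0.027, adjusted p = 1.32e-08), so the transcript fell by 20.3%. NDRG1 and ADM were the only 2 of the 9 genes tested with an absolute log2 fold change over 0.25, a size that 9.10% of all genes tested passed together with the call (4.80% higher, 4.30% lower).

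VEGFA, the ligand that drives vessel growth and the textbook HIF target, is on chromosome 6 from 43770184 to 43786487 (plus strand). Its level was 558, 612 and 575 CPM in DMSO and 537, 543 and 541 CPM on ZW27941. The ZW27941 libraries lay close together just below the lowest DMSO library. The log2 fold change was −0.11 (SE 0.029, adjusted p = 0.00794). Without DMSO replicate 2, the highest of the DMSO libraries, it was −0.067 and no longer called (adjusted p = 0.105).

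BNIP3, a mitochondrial protein that promotes mitophagy, is on chromosome 10 from 131966455 to 131982013 (minus strand). It was at 135, 137 and 142 CPM in DMSO and at 124, 126 and 124 CPM on ZW27941, without overlap. The log2 fold change was −0.15 (SE 0.025, adjusted p = 1.14e-04). BNIP3 has many processed pseudogenes, with which the counting could have split reads. Those with any count summed to between 80 and 108 reads per library, against 18127 to 22295 for BNIP3 itself. Reads without a unique alignment were tallied apart from genes (3.63% to 5.25% of reads tallied). These sums therefore cannot show how many reads BNIP3 lost in that way.

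KDM3A, a histone H3 lysine demethylase, is on chromosome 2 from 86440647 to 86492716 (plus strand). Its level was 185, 196 and 197 CPM in DMSO and 177, 182 and 172 CPM on ZW27941. The highest ZW27941 library was just under the lowest DMSO library. The log2 fold change was −0.12 (SE 0.028, adjusted p = 0.00223). PDK1, the pyruvate dehydrogenase kinase that turns pyruvate away from mitochondria, is also on chromosome 2, from 172555373 to 172608669 (plus strand). It was at 83.7, 84.1 and 87.7 CPM in DMSO and at 82.0, 85.0 and 79.1 CPM on ZW27941, so the groups overlapped. Its log2 fold change was −0.054 (95% interval −0.11 to 0.0060, adjusted p = 0.172), and with upper quartile normalization it was −0.078 with an adjusted p of 0.0468.

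**Figure D3:**
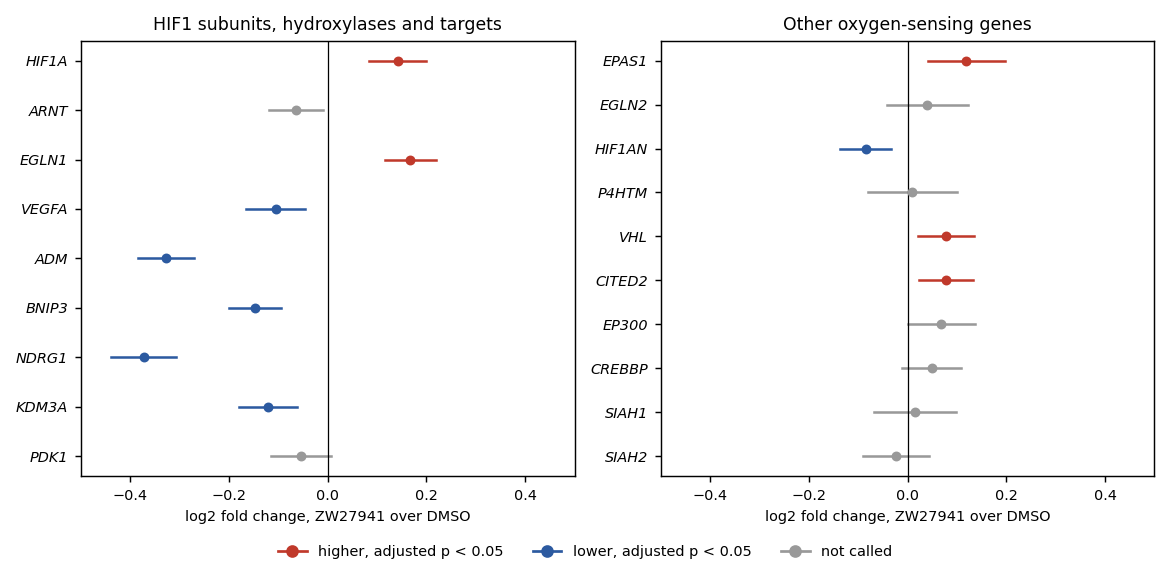
log2 fold change of ZW27941 over DMSO (x axis) with 95% intervals, for the 9 tested genes of the set (left) and for other oxygen-sensing genes (right, without HIF3A, whose interval from −0.87 to 0.71 would not be drawn to scale). Red and blue are genes called higher and lower, and grey genes were not called. HIF1A and EGLN1 lie to the right of 0 and the 6 target genes to the left of it.

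The median log2 fold change was −0.11 in the set and −0.0019 over all genes tested. Of the 9, 2 lay above and 6 below without overlap between the groups. Among all genes tested 41.6% were separated in this way, 21.7% above and 19.9% below. Under upper quartile normalization, 2 genes of the set were higher and 7 lower, where 13.0% of all genes tested were higher and 17.9% lower (30.8% in all). The median log2 fold change was then −0.13 in the set and −0.025 over all genes tested.

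Within the DMSO group, DMSO replicate 1 was the lowest of the 3 libraries for each of VEGFA, ADM, BNIP3, NDRG1, KDM3A and PDK1. As log2 against the DMSO mean, the median over the 9 tested genes was −0.029, 0.020 and 0.034 in the DMSO libraries and −0.11, −0.079 and −0.12 in the ZW27941 libraries. All ZW27941 medians were thus below all DMSO medians.

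Levels of different genes can be compared only per length, here as CPM per kilobase of the longest protein-coding transcript in GENCODE v29. In DMSO, VEGFA was at 165 ± 7.81 and NDRG1 at 152 ± 8.06 CPM per kilobase (SD, n = 3), followed by ADM at 52.8 ± 1.58, BNIP3 at 45.0 ± 1.07 and KDM3A at 39.1 ± 1.34. The values of VEGFA and NDRG1 in DMSO lay side by side, the lowest of VEGFA just above the highest of NDRG1, and were not tested against each other. ARNT at 27.1 ± 0.479, EGLN1 at 21.4 ± 0.549, HIF1A at 11.1 ± 0.237 and PDK1 at 6.001 ± 0.156 came next, and EGLN3 was last at 0.0165 ± 0.00390. HIF1A was thus below its partner ARNT in RNA. PDK1 was scaled by a transcript of 14193 bases, which lowers its value if shorter forms are used. VEGFA, NDRG1 and KDM3A were scaled by 3535, 3755 and 4928 bases, of 14431, 9823 and 13423 annotated exonic bases. ADM and BNIP3 were scaled by 1889 and 3066 bases, of 2718 and 5325. This scaling raises the values of these genes if reads also fell on the other exonic bases. On ZW27941, VEGFA at 153 ± 0.898 and NDRG1 at 117 ± 3.06 CPM per kilobase were further apart. ADM at 42.1 ± 0.813 and BNIP3 at 40.6 ± 0.347 came closer, though still without overlap. How near ADM and BNIP3 lie to each other depends on the transcript lengths used.

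Of 12 other genes of oxygen sensing, 11 were tested, and 3 were called higher (27.3%) and 1 lower (9.09%), where 16.3% and 13.8% of all genes tested were. EPAS1, the HIF2 alpha subunit, was at 14.2 ± 0.115 CPM in DMSO and 15.5 ± 0.356 on ZW27941 (SD, n = 3), a log2 fold change of 0.12 with an adjusted p of 0.0189. VHL, the receptor that ZW27941 recruits, had a log2 fold change of 0.078 (adjusted p = 0.0342). CITED2, which competes with HIF1A for the coactivators EP300 and CREBBP and is itself HIF-induced, had 0.078 (adjusted p = 0.0276). HIF1AN, the asparaginyl hydroxylase that blocks coactivator binding, fell by 0.085 on the log2 scale (adjusted p = 0.0127). These calls were fragile. Without DMSO replicate 2 or without ZW27941 replicate 2 none of the 11 was called, and with upper quartile normalization HIF1AN alone was. Over all genes tested, 6149 of 20399 were called with all 6 libraries. Without DMSO replicate 2 it was 4836 of 20792, and without ZW27941 replicate 2 it was 4939 of 20869. With upper quartile normalization it was 6287 of 20399.

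EP300 and CREBBP had log2 fold changes of 0.069 and 0.049 and were not called, but without ZW27941 replicate 3 they were 0.12 and 0.082 and both were called (adjusted p = 4.62e-04 and 0.0130). EP300 was also called with no filter on low counts (0.074). The hydroxylase EGLN2 was at 19.1 ± 1.15 CPM in DMSO and 19.6 ± 0.375 on ZW27941 (SD, n = 3), with a 95% interval of the log2 fold change from −0.042 to 0.12. P4HTM, SIAH1 and SIAH2 were not called either, with log2 fold changes between −0.023 and 0.014. HIF3A was at or under 0.0981 CPM in every library, and ARNT2 had too few reads for a test.

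The wider list of HIF targets outside glycolysis held 42 genes, of which 30 passed the filter. Of these 30, 16 were lower (53.3%) and 3 higher (10.0%), beside 13.8% and 16.3% of all genes tested. Their median log2 fold change was −0.088. Without DMSO replicate 3, 10 were lower and 3 higher. That fit called 4883 of 20801 genes tested, against 6149 of 20399 with all libraries. ANKRD37 and HILPDA were among the largest falls.

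ANKRD37, a small ankyrin-repeat gene used as a hypoxia marker, was at 11.0, 11.4 and 12.0 CPM in DMSO and 9.55, 8.64 and 8.62 CPM on ZW27941 (log2 fold change −0.36, SE 0.052, adjusted p = 1.95e-05). HILPDA, which blocks lipid breakdown in droplets, was at 88.4, 87.6 and 86.8 CPM and then 69.0, 72.8 and 65.7 CPM (log2 fold change −0.34). Neither gene showed overlap between the groups. P4HA1, a collagen prolyl hydroxylase subunit, had a log2 fold change of −0.26, and DDIT4, an inhibitor of mTORC1, of −0.23.

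CA9, a carbonic anhydrase widely used as a hypoxia marker, was at a low 3.24, 3.53 and 3.74 CPM in DMSO and 3.001, 3.04 and 2.78 CPM on ZW27941. Its fall of 0.25 on the log2 scale (adjusted p = 0.0191) was no longer called without DMSO replicate 2 (adjusted p = 0.0538) or without DMSO replicate 3 (adjusted p = 0.0995). The 3 genes that rose were AK4, a mitochondrial adenylate kinase (0.19), ENG, a TGF-beta coreceptor (0.16), and CXCR4, the receptor that holds leukemia cells in the marrow (0.10).

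**Figure D4:**
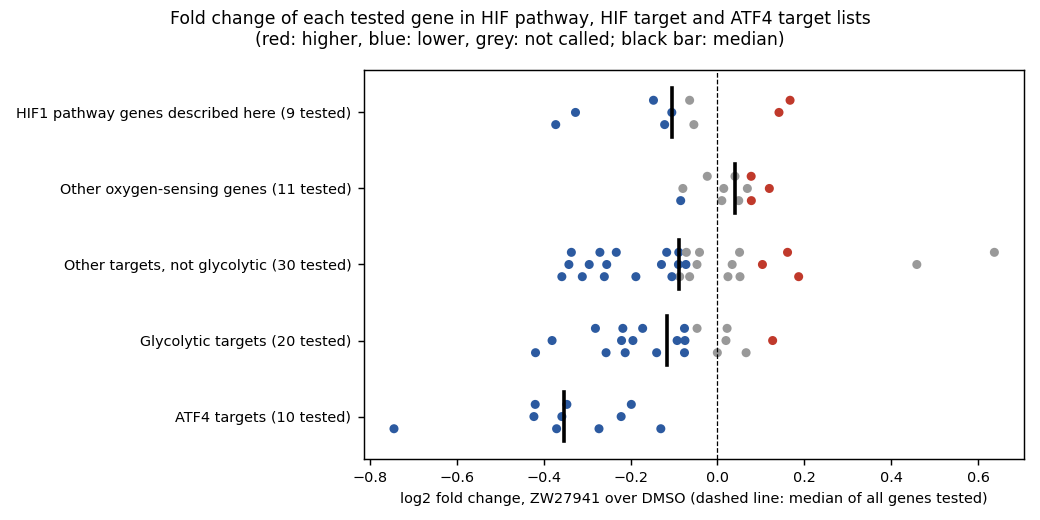
log2 fold change of ZW27941 over DMSO (x axis) of each tested gene in 5 lists. Red and blue are genes called higher and lower, grey genes were not called, black bars are list medians and the dashed line is the median of all genes tested. Medians lie at −0.11 for the HIF1 set, −0.088 for other targets, −0.12 for glycolytic targets and −0.35 for ATF4 targets, against 0.040 for oxygen-sensing genes.

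Of 20 glycolytic HIF targets, 14 were lower (70.0%) and 1 was higher (5.00%), beside 13.8% and 16.3% of all genes tested. Without DMSO replicate 2 or without ZW27941 replicate 2, 11 were lower and 2 higher, and without DMSO replicate 3, 10 were lower and 1 higher. Calls over all genes tested were also fewer in these fits, at 4836, 4939 and 4883 against 6149 with all libraries. The largest fall was in ALDOC, an aldolase (log2 fold change −0.42), and the rise was in HK1, a hexokinase that is the housekeeping form of its family (0.13). Targets of ATF4, the transcription factor of the integrated stress response, moved the same way. VEGFA, ADM, NDRG1 and DDIT4 are known to respond to that pathway as well as to HIF. All 10 genes of a list of ATF4 and its targets were lower, beside 13.8% of all genes tested. Their median log2 fold change was −0.35, and DDIT3 fell most (−0.74). The part of this pathway in the fall of the HIF targets was not tested.

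Of 17 close relatives of the 10 genes, 13 were tested, and 3 were higher and 3 lower (23.1% each), beside 16.3% and 13.8% of all genes tested. Without DMSO replicate 2, without DMSO replicate 3 or without ZW27941 replicate 2, 1 was higher and 2 lower. Those fits called 4836, 4883 and 4939 of all genes tested, against 6149 with all libraries. NDRG2 rose (log2 fold change 0.19, adjusted p = 0.0122, not called without DMSO replicate 3) and NDRG3 was not called (−0.047, but −0.070 and called with upper quartile normalization), while NDRG1 fell by 0.37 on the log2 scale. VEGFB, a relative of VEGFA that hypoxia does not induce, had a log2 fold change of 0.10 (adjusted p = 0.0393), a call that was lost in 9 of 14 alternatives.

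ADM2, a peptide of the same family as ADM and a known ATF4 target, fell further than ADM, from 7.26 ± 0.457 to 4.95 ± 0.279 CPM (SD, n = 3), a log2 fold change of −0.55 (adjusted p = 1.65e-06). BNIP3L, the second mitophagy receptor of its family, fell by 0.089 on the log2 scale (adjusted p = 0.0174), a call lost without DMSO replicate 3 (−0.056) and without ZW27941 replicate 1. PDK3 fell by 0.18 on the log2 scale (adjusted p = 0.0238), a call lost without DMSO replicate 1, DMSO replicate 2 or ZW27941 replicate 2. PDK2, at −0.10, was called only without ZW27941 replicate 3 (−0.14). KDM3B and JMJD1C, the relatives of KDM3A, had log2 fold changes of 0.059 and −0.062 and were not called. KDM3B was called without ZW27941 replicate 3 (0.070) and with library size only (0.069). JMJD1C was called without ZW27941 replicate 1 (−0.091) and with upper quartile normalization (−0.086). ARNTL (0.081) and the VEGFA relative PGF (−0.43, with 55 to 83 reads per library) were not called. Differences between relatives were not tested directly.

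Of 7 receptor genes for the secreted targets, 4 were tested and 0 were called, where 30.1% of all genes tested were. With 4 genes, this count cannot be set apart from that share. For VEGFA, FLT1 was at 7.75 ± 0.231 CPM in DMSO and 7.71 ± 0.0961 on ZW27941, and its coreceptor NRP1 was at 55.5 ± 1.92 and 58.1 ± 1.20 CPM (SD, n = 3). NRP1 was called without DMSO replicate 1 (log2 fold change 0.093). NRP2, a second coreceptor, had a log2 fold change of 0.088. KDR, the main signalling receptor for VEGFA, had too few reads for a test. CALCRL, the receptor for ADM, was at or under 0.0977 CPM in every library, and RAMP2 and RAMP3, its partners, had too few reads for a test.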

How the data were processed

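For each library the authors deposited the raw counts of every gene symbol and 5 tallies of reads given to no gene, which were left out (37.4% to 39.8% of reads tallied). Submitters' processing notes name HISAT2, SAMtools 1.19.2, HTSeq 2.0.3 and build hg38. Annotation and strand setting are not given in the sources used here. Counts were tested in R 4.3.3 with edgeR 4.0.16 (TMM, filterByExpr, quasi-likelihood, Benjamini-Hochberg adjustment over 20399 genes, threshold 0.05), without a replicate block, all 6 libraries in the fit. The edgeR test was also run on simulated counts with known changes in genes drawn from all those tested. It recovered 42 of 67 changes of 1.25-fold, 52 of 67 of 1.5-fold and 58 of 66 of 2-fold, with 9 false calls. Every simulated gene had the same spread between replicates (biological coefficient of variation 3.106%), and only these drawn genes were changed. In the data ZW27941 replicate 3 stood apart from its group, and 6149 genes were called. The simulated rates are therefore not error rates for the data. Smaller changes were not simulated. Intervals of log2 fold changes are 95% intervals. DESeq2 1.42.0 and other normalizations, filters and thresholds were alternatives. Positions came from GENCODE v29, promoter windows from RefSeq. The genes and lists were chosen with earlier results of these data known. The genes named were those of the set, its relatives, regulators and receptors, and, in other lists, those with the largest called changes (3 each way, or 1 each way for glycolytic and ATF4 targets) plus ANKRD37, BNIP3L, CA9, P4HA1 and DDIT4. A gene that this rule names is not reported here. Library medians used log2(CPM + 0.1).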

Additional observations from a re-analysis of the deposited data

How the results depend on the processing

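The counts of the HIF1 set, 2 higher and 5 lower, were the same with DESeq2, edgeR's exact test, RLE normalization, library size only, both other filters and the replicate block. With upper quartile normalization 9 were called. When single libraries were left out, 6 to 7 were called, 4 to 5 of them lower, and the median log2 fold change of the set ran from −0.13 to −0.067, the latter without DMSO replicate 2. With an absolute log2 fold change over 0.25 as a further condition, 2 of the 9 genes tested in the set were called (0 higher, 2 lower). So were 8 of 30 other targets (0 higher, 8 lower), 4 of 20 glycolytic targets, 1 of 13 relatives and 0 of 11 oxygen-sensing genes. Among all genes tested 9.10% passed (4.80% higher, 4.30% lower). Most calls here are thus of small changes, apart from the ATF4 list, where 7 of 10 passed. Upper quartile normalization left 1 of the 4 oxygen-sensing calls. Leaving out 1 library gave 0 to 6 of these calls, 13 to 19 of the other targets (10 to 16 lower), 11 to 15 of the glycolytic targets, 3 to 7 of the relatives and 0 to 1 of the receptors. Over all genes tested, such fits called between 4836 and 6134 genes, against 6149 with all libraries.

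The sign turned only for genes that were never called. With single libraries left out, the log2 fold change ran from −0.0073 to 0.077 for EGLN2, from −0.028 to 0.037 for P4HTM, from −0.0027 to 0.029 for SIAH1, from −0.043 to 0.0022 for SIAH2 and from −0.032 to 0.0097 for FLT1. With upper quartile normalization P4HTM was at −0.013 and SIAH1 at −0.0090, and with library size only FLT1 was at 0.0014. No pairing by replicate number was detected, with deviations of same-numbered libraries correlated at −0.017, −0.022 and 0.067. With 3 libraries per group this cannot show whether cultures were handled in pairs. With the replicate block, the calls of the HIF1 set stayed at 7, and of the genes named VEGFB alone lost its call (log2 fold change 0.10, adjusted p = 0.0532). The cause of these changes was not tested.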
